A study of Rattus norvegicus with 20 samples.

Results

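The comparison described here set the cortical collecting ducts of 3 water-loaded rats against those of 3 control rats at day 4. The series is about vasopressin escape, and the comparison used 6 of its 20 libraries. These 6 libraries were chosen by their labels alone. Days follow the sample titles, as the treatment text mentions 4 days of water load for every sample. Every rat was a male Sprague-Dawley animal of 5 weeks carrying a minipump that delivered 5 ng per hour of DDAVP, a drug that activates the vasopressin V2 receptor, so the controls were themselves under constant antidiuresis. The water-loaded rats took 50 mL of water per day in gelled food and the controls 25 mL per day. Ducts were microdissected, and RNA was reverse-transcribed in the lysate and amplified by a protocol designed for single cells before RNA-seq. The question at day 4 is which transcripts differ once the kidney has had several days to escape from the hormone. Day 1 (3 and 3 rats) and day 2 (4 and 4 rats) are used only to set the day 4 values in place.

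In principal cells of the collecting duct, vasopressin binds the V2 receptor, raises cyclic AMP and activates protein kinase A. The kinase drives the water channel aquaporin 2 to the apical membrane and, over hours to days, raises its gene's transcription. Water then leaves the cell through aquaporins 3 and 4 in the basolateral membrane. Vasopressin escape is the loss of this antidiuresis when water intake stays high although the hormone is still present, and a lower abundance of aquaporin 2 is its best known feature. Intercalated cells, the other main cell type of the segment, carry acid and base.

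Across all genes, no difference at day 4 passed the test. Of 32545 genes in the counts, 14472 were abundant enough to be tested, and edgeR's quasi-likelihood test called 0 of them at an adjusted p below 0.05, which is 0% of the genes tested. The smallest adjusted p was 0.234, for Eva1b. At an unadjusted p below 0.05 there were 724 genes with higher levels in the water-loaded rats (5% of those tested) and 321 with lower levels (2.22%). DESeq2, run on the same counts, called 319 genes, 286 higher and 33 lower. In 283 of those 286 the mean level in control ducts was under 1 CPM (counts scaled to library size, by TMM). In 21 of the 33 lower calls the mean level in water-loaded ducts was under 1 CPM. A mean of 10 CPM or more in 1 group was reached by 13 of the 33 lower calls and 11 of the 286 higher ones. DESeq2's calls included all 8 lower and 6 of the 8 higher genes named below for the smallest unadjusted p. As the main test called 0 genes, levels below are given rat by rat, as values that did not pass it.

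The ducts carried the markers of their segment. Among principal cell markers, Hsd11b2, the enzyme that shields the mineralocorticoid receptor from cortisol and corticosterone, stood at 4408, 4915 and 5803 CPM in water-loaded rats and 7179, 5032 and 3992 CPM in control rats. Slc26a4 (pendrin), a marker of type B intercalated cells, stood at 2864, 2241 and 3177 CPM with water load and 2613, 2907 and 3168 CPM in controls. Slc4a1, the anion exchanger of type A cells, stood at 2271, 2134 and 1700 CPM against 1443, 1846 and 1597 CPM. In each of these 3 genes the rats of the groups overlapped.

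The water-loaded libraries held more kinds of transcript. Reads on genes numbered 33527913 to 40838567 in the water-loaded libraries and 35845265 to 48872542 in the controls. Thinned to the depth of the shallowest, 14147 to 14431 genes had a read in each water-loaded library, against 12777 to 13570 in each control library. The 10 most abundant genes took 7.55% to 8.09% of the reads with water load and 9.76% to 11.81% in controls. At least 1 read was counted in all 3 water-loaded rats and in no control rat for 196 genes, and the reverse held for 31. With at least 10 reads required, the numbers were 55 and 1. The 2 groups did not overlap in either measure of breadth, as the plot of library breadth shows. When the number of genes detected was put into the fit as a covariate, 0 genes were called, and the differences of Aqp2 and Aqp3 became -1.48 and -2.08 log2 units. Unadjusted p below 0.05 was then reached by 537 higher and 464 lower genes, against 724 and 321 in the main fit. The fitted signs of Emcn, Rab7a and Fzd6 turned with the covariate. As breadth did not overlap between the groups at day 4, it cannot be told apart from water load there.

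**Figure D1:**
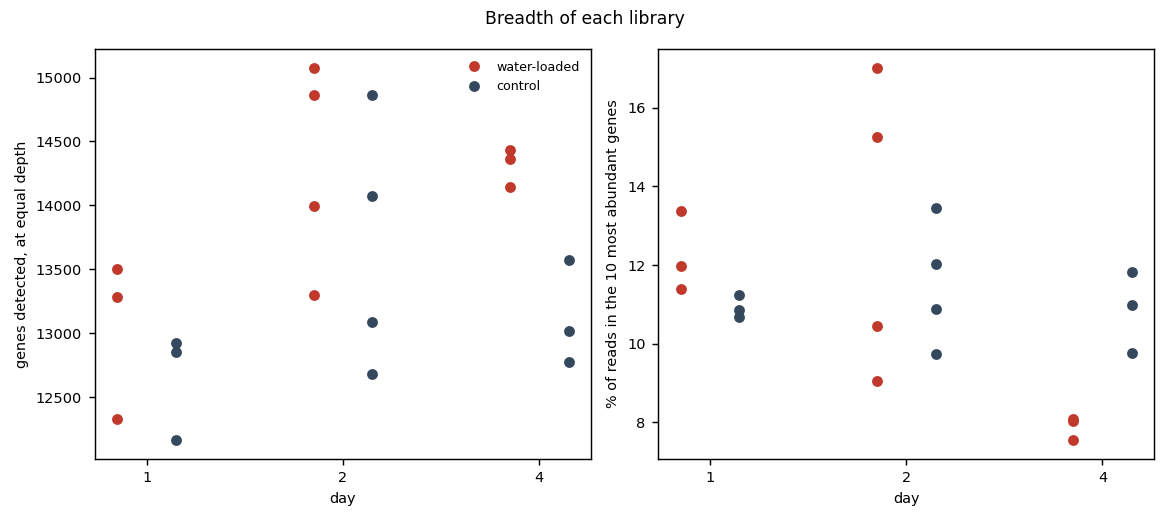
Each point is 1 library, water-loaded on the left of each day and control on the right. The left panel gives the number of genes with a read at equal depth (axis not from 0), and the right panel the percentage of reads in the 10 most abundant genes (axis not from 0); at day 4 the 3 water-loaded libraries lie at 14147 or more genes and the 3 controls at 13570 or fewer.

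The 8 lower genes with the smallest unadjusted p included the 2 water channels that vasopressin regulates, which are described first. Aqp2, the apical channel, measured 10719, 13203 and 18459 CPM in ducts under water load and 42896, 55370 and 25379 CPM in the controls. The groups did not overlap, and the nearest pair were water-loaded rat 3 and control rat 3. The fitted difference was -1.54 ± 0.34 log2 units (SE), a level 2.92-fold lower with water load, with an unadjusted p of 0.00022 and an adjusted p of 0.482. Reads of Aqp2 alone were 1.30%, 1.61% and 2.20% of the reads on genes in the water-loaded libraries and 4.10%, 5.01% and 2.96% in the controls. Aqp3, the basolateral channel through which water and glycerol leave the cell, stood at 1369, 1586 and 1201 CPM, against 5147, 7583 and 3626 CPM in controls. Its difference was -1.98 ± 0.39 log2 units, 3.94-fold lower, with an adjusted p of 0.356. An exact two-sided permutation test over the 6 rats gave p = 0.1 for each channel, which is the smallest p that 3 against 3 rats allow. DESeq2 called both, with an adjusted p of 0.0142 for Aqp2 and 0.00085 for Aqp3; over all alternatives the adjusted p ran from 0.0142 to 1 for Aqp2 and from 0.00085 to 1 for Aqp3.

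Aqp4, the third water channel of these cells, did not share the pattern. It stood at 97.9, 146.4 and 100.8 CPM with water load, against 153.9, 54.4 and 96.2 CPM in controls, with overlapping rats. Avpr2, which encodes the V2 receptor itself, stood at 355.2, 551.4 and 758.1 CPM, against 1158, 835.6 and 517.6 CPM. Its difference was -0.59 ± 0.34 log2 units, and water-loaded rats 2 and 3 lay within the span of the controls. The 3 subunits of the epithelial sodium channel, the route of sodium entry into principal cells, were each overlapping between groups, with differences of -0.33 ± 0.28 for Scnn1a, -0.07 ± 0.28 for Scnn1b and 0.34 ± 0.25 for Scnn1g (log2, SE).

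Other genes at the low end of the unadjusted p-values had wider or narrower gaps than the channels. Eva1b, a membrane protein gene, stood at 40.1, 57.8 and 117.8 CPM in water-loaded rats, against 477.5, 843.4 and 296.8 CPM in controls, a difference of -2.91 ± 0.51 log2 units. With the test limited to genes of at least 10 CPM it was the 1 gene called, at an adjusted p of 0.0464; its adjusted p over all alternatives ran from 6.27e-06 to 1. Sfrp2, a secreted protein that modulates Wnt signals, stood at 0.81, 7.32 and 0.25 CPM, against 332.6, 307.1 and 67.96 CPM. It was close to absent in 2 water-loaded rats and clearly present in all 3 controls, and its difference was -6.40 ± 1.30 log2 units (adjusted p 0.356). Sfrp2 was called on log2(FPKM + 1) values at an adjusted p of 0.0102, within a range of 2.52e-08 to 1 over the alternatives.

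Hmx2, a homeobox transcription factor, had the smallest standard error of this set. Its levels were 1347, 1222 and 1550 CPM in water-loaded rats and 3329, 2929 and 1967 CPM in controls, -0.998 ± 0.218 log2 units (adjusted p 0.482). Kcnq1, a voltage-gated potassium channel, stood at 314.3, 273.5 and 368.4 CPM, against 730.1, 870.1 and 451.3 CPM. Ubtd1, a protein with a ubiquitin-like domain, stood at 80.9, 85.3 and 95.5 CPM, against 361.8, 337.4 and 150.4 CPM. Auh, a mitochondrial enzyme of leucine breakdown, stood at 193.7, 137.6 and 268.7 CPM, against 534.6, 511.4 and 273.3 CPM. DESeq2 called Hmx2, Kcnq1, Ubtd1 and Auh, at adjusted p of 0.00694, 0.0208, 0.00256 and 0.041. In all 8 of these lower genes control rat 3 was the control nearest to the water-loaded rats, and in 6 of the 8 water-loaded rat 3 was the nearest from the other side. The same control was nearest in 608 of the 974 genes (62.4%) whose water-loaded rats all lay below the controls. Without control rat 3 the differences were -1.78 log2 units for Aqp2 and -2.19 for Aqp3, each with an adjusted p of 0.107, and 0 genes were called. When each day 4 rat was left out in turn, the differences smallest in size were -1.27 for Aqp2 and -1.66 for Aqp3.

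**Figure D2:**
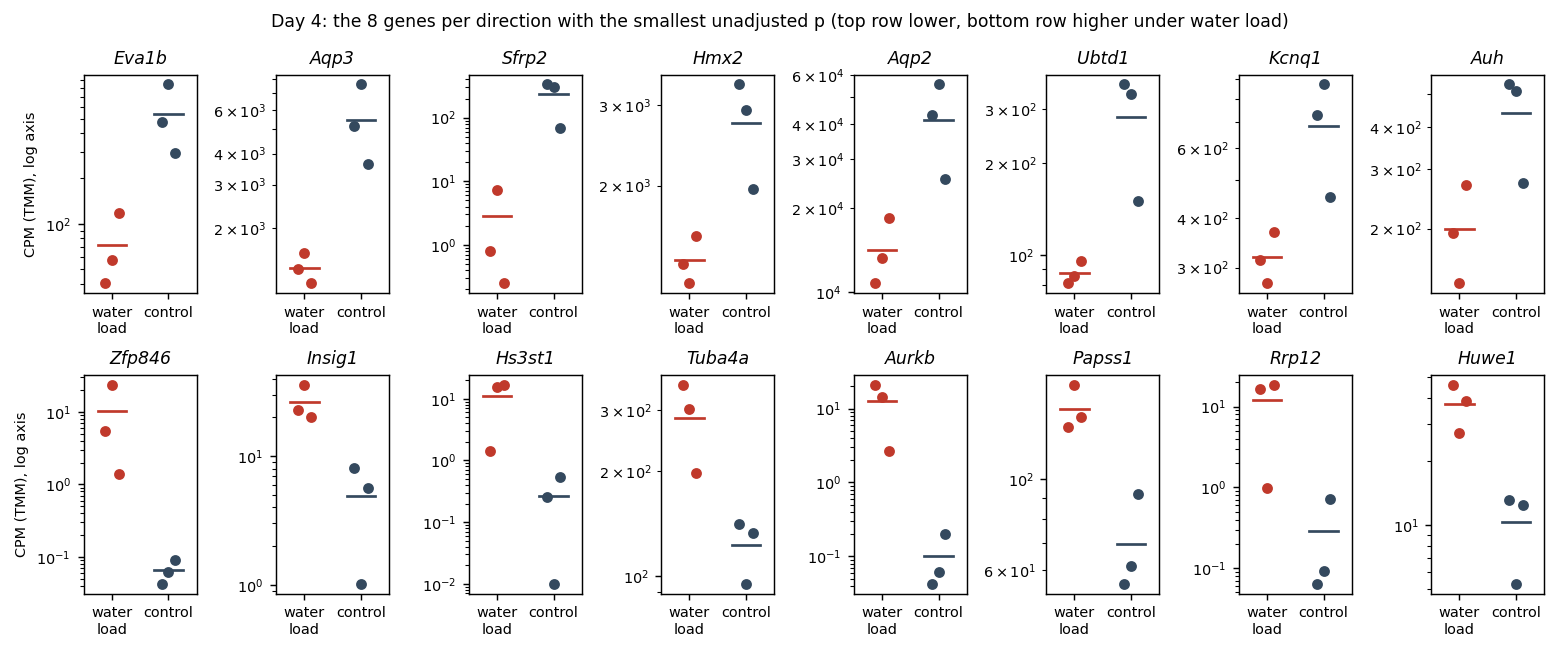
Each point is 1 rat at day 4, water-loaded on the left and control on the right of each panel, in TMM-scaled CPM on a log axis; bars are group means, and the 1 control value of 0, in Hs3st1, is drawn at 0.01 CPM. The groups are apart in each of the 16 panels, and control rat 3, the rightmost point of each control group, is the lowest control in every panel of the top row.

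The higher genes with the smallest unadjusted p were of 2 kinds: genes present in both groups, and genes near the limit of detection in the day 4 controls. Tuba4a, an alpha-tubulin of microtubules, stood at 353.8, 301.9 and 197.0 CPM in water-loaded rats, against 140.9, 95.04 and 132.6 CPM in controls, a difference of 1.21 ± 0.36 log2 units. Papss1, which makes the activated sulfate used in all sulfation reactions, stood at 133.6, 169.1 and 140.9 CPM, against 55.6, 61.3 and 91.9 CPM. At days 1 and 2 Papss1 averaged 213.2 and 223.3 CPM with water load and 219.3 and 174.4 CPM in controls. Insig1, which holds back the maturation of the sterol-sensing SREBP factors, stood at 22.7, 35.8 and 20.03 CPM, against 8.09, 1.02 and 5.68 CPM. Huwe1, a large ubiquitin ligase, stood at 46.1, 27.1 and 38.5 CPM, against 13.1, 5.28 and 12.5 CPM. Of the 8 higher genes, Zfp846 had an adjusted p of 0.356 and the other 7 had 0.674.

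The other 4 had control levels under 1 CPM in every rat at day 4. Zfp846, a zinc finger gene, stood at 5.404, 23.7 and 1.40 CPM with water load and 0.04, 0.06 and 0.09 CPM in controls. Aurkb, the kinase of the chromosomal passenger complex in mitosis, stood at 20.9, 14.1 and 2.70 CPM, against 0.04, 0.06 and 0.20 CPM. Hs3st1, a heparan sulfate sulfotransferase, stood at 1.43, 15.5 and 16.9 CPM, against 0.26, 0 and 0.53 CPM. Rrp12, a ribosome assembly factor, stood at 16.7, 0.99 and 18.6 CPM, against 0.06, 0.09 and 0.72 CPM. The water-loaded rats spread widely in each of these 4, and in Rrp12 the lowest of them was close to the highest control. All 4 had higher control means at days 1 and 2 than at day 4. At days 1 and 2 Zfp846 averaged 10.05 and 11.83 CPM with water load and 15.97 and 22.54 CPM in controls. Hs3st1 then averaged 7.497 and 12.37 CPM, against 12.66 and 23.3 CPM. Aurkb averaged 1.307 and 26.9 CPM, against 1.435 and 7.775 CPM, and Rrp12 21.37 and 8.587 CPM, against 1.565 and 11.29 CPM.

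Promoter sequences are shown for the 2 channels and for Sfrp2, the most separated of the lower genes, and for Insig1 and Tuba4a from the higher side. They are the 250 bases before the start site, from RefSeq on GRCr8, in the direction of the gene. Capitals mark the core of the cyclic AMP response element, TGACG or its complement CGTCA, to which CREB-family factors bind, and the GATA motif AGATAA or its complement TTATCT. The regions are chr7:132590036-132590285 on the plus strand for Aqp2, chr5:61040684-61040933 on the minus strand for Aqp3, chr2:171387286-171387535 on the plus strand for Sfrp2, chr4:8057770-8058019 on the minus strand for Insig1 and chr9:84162585-84162834 on the minus strand for Tuba4a.
Aqp2: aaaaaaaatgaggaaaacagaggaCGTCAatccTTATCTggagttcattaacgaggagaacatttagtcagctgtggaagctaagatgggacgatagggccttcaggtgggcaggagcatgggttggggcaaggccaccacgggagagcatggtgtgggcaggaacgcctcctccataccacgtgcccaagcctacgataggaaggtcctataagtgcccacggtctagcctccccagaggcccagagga
Aqp3: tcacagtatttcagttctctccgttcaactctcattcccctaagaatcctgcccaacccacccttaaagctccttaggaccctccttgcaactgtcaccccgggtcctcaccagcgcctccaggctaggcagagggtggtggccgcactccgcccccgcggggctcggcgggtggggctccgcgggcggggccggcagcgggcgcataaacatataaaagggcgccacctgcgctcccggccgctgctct
Sfrp2: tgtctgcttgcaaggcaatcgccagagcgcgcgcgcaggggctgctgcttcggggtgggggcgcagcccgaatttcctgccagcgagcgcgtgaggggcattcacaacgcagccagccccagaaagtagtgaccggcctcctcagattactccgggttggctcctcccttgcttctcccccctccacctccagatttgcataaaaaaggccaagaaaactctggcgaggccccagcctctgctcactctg
Insig1: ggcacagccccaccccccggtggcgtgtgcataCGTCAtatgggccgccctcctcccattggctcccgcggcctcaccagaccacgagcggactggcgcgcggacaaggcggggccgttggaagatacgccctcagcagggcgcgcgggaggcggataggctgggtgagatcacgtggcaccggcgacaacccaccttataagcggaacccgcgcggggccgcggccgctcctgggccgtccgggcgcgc
Tuba4a: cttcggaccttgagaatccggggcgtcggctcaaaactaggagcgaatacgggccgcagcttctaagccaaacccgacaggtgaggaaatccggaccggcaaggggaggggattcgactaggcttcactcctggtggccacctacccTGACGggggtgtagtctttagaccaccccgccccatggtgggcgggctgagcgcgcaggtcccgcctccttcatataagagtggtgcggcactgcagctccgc

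The Aqp2 sequence holds a response element core at -226 and a GATA motif at -217 from the start, and neither motif is among the letters shown for Aqp3 and Sfrp2. Of the 16 genes above, 14 were found in the promoter table by symbol; Aurkb and Kcnq1 were not matched. In windows of 250 bases before to 50 after the start, read on both strands, 6 of 7 higher genes and 1 of 7 lower genes held that core, which 22% of 27457 rat promoters hold. The GATA motif was in 0 of 7 higher and 2 of 7 lower genes (Aqp2 and Auh), against 11.3% of promoters. The AP-1 motif TGANTCA was in none of the 14, against 7.33% of promoters. These are matches of letters in small sets chosen by their p-values, and no binding was measured.

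Set against days 1 and 2, the day 4 differences of Aqp2 and Aqp3 were the largest of the 3 days in size. The test of the difference between days was not passed, however. The log2 differences at days 1, 2 and 4 were -0.72, -0.95 and -1.54 for Aqp2 and -1.03, -1.78 and -1.98 for Aqp3. The Aqp2 mean was 13607, 12618 and 14127 CPM at days 1, 2 and 4 in water-loaded rats and 22426, 24371 and 41215 CPM in controls. Aqp3 averaged 1006, 838 and 1385 CPM with water load and 2049, 2873 and 5452 CPM in controls. Sfrp2 averaged 5.48, 5.197 and 2.79 CPM with water load and 23.3, 74.3 and 236 CPM in controls. In these 3 genes the day-to-day spread of means was thus wider among the controls than among the water-loaded rats, whose Sfrp2 values ran from 0.25 to 12.5 CPM over the 3 days.

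Hmx2 and Tuba4a had much the same difference at every day. Hmx2 averaged 1264, 895 and 1373 CPM with water load and 2173, 1758 and 2742 CPM in controls, and its groups did not overlap at any of the 3 days. Tuba4a averaged 192, 297 and 284 CPM with water load and 93.5, 148 and 123 CPM in controls, again apart at all 3 days. Ubtd1 differed by -0.69, -0.20 and -1.70 log2 units at days 1, 2 and 4, with overlapping rats at the first 2. The effect at day 4 was tested against the mean effect of days 1 and 2 in the same fit: 0 of 14472 genes (0%) passed, with a smallest adjusted p of 0.781, and 782 had an unadjusted p below 0.05. DESeq2 called 291 genes in that contrast. The difference between days was -0.71 ± 0.40 log2 units for Aqp2, -0.57 ± 0.46 for Aqp3, -3.44 ± 1.29 for Sfrp2 and -1.26 ± 0.45 for Ubtd1 (SE), none past the threshold.

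**Figure D3:**
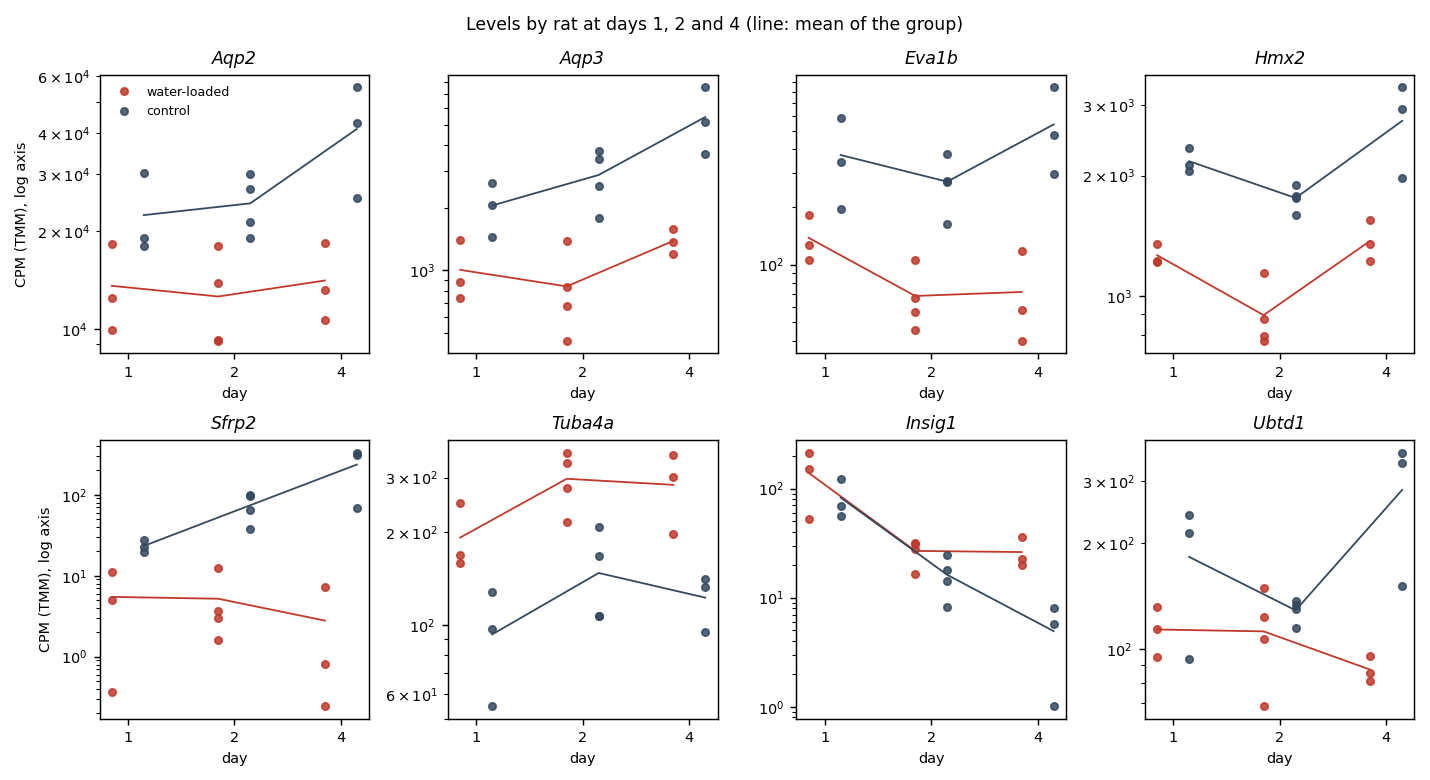
Points are single rats at days 1, 2 and 4, water-loaded to the left and control to the right of each day, and lines join the group means, in TMM-scaled CPM on log axes. For Aqp2 the water-loaded means stay between 12618 and 14127 CPM while the control means are 22426, 24371 and 41215 CPM.

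The direction of the differences went with abundance. Where the 3 water-loaded rats did not overlap the 3 controls, they were above them in 1148 genes (7.93% of those tested) and below them in 974 (6.73%). By the sign of the fitted difference alone, 49.1% of genes were higher and 49.8% lower with water load. Among the 7429 genes with a mean of 10 CPM or more over the day 4 libraries, the shares were 5.01% above and 10% below. The median log2 difference was 0.89 in 3084 genes under 1 CPM, 0.09 in 3959 genes of 1 to 10 CPM, -0.07 in 5606 genes of 10 to 100 CPM, -0.27 in the next 1716 genes and -0.30 in the 107 most abundant genes. TMM factors were 1.215, 1.22 and 1.19 in the water-loaded libraries and 0.9565, 0.9043 and 1.166 in the controls. A larger factor gives lower CPM. Without TMM the mean log2 difference was -1.24 for Aqp2 and -1.65 for Aqp3, against -1.51 and -1.92 with it. The part that scaling plays in these shares and medians was not tested. The counts of gene lists below are read against the shares above.

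**Figure D4:**
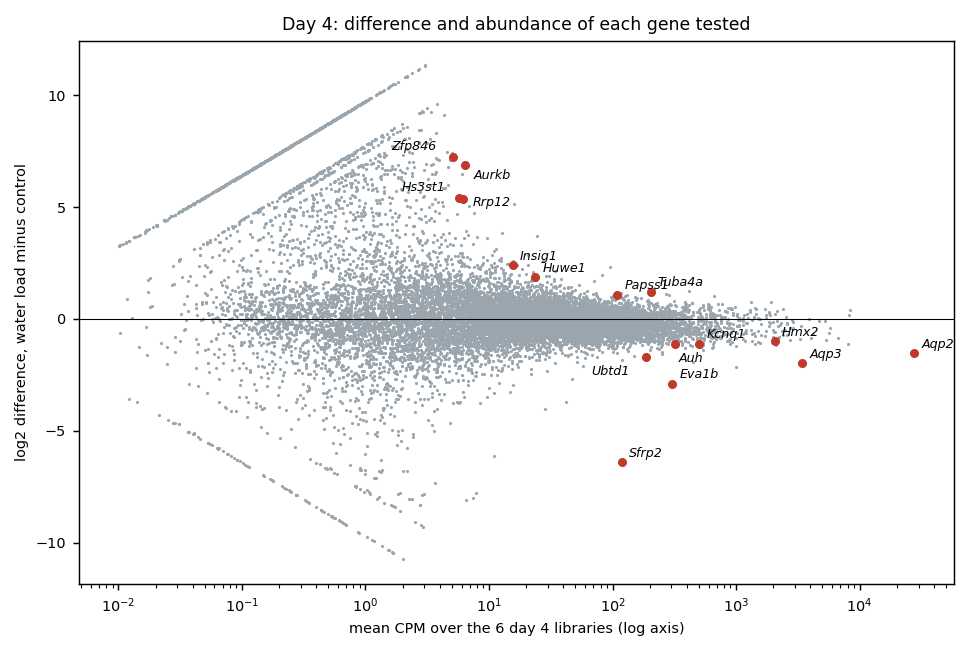
Each grey point is 1 of the genes tested, placed by its mean CPM over the 6 day 4 libraries (log axis) and its fitted log2 difference, water load minus control; the 16 genes with the smallest unadjusted p are red. Aqp2, the most abundant of them, lies at -1.54, and Sfrp2 is the lowest at -6.40; the straight edges are genes with no reads in 1 group, whose fitted value depends on the prior count.

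Among the other genes of the vasopressin pathway, many small differences pointed down. In the list of receptor, cyclic AMP and protein kinase A genes, 0 of 25 tested members were called, 19 had lower and 6 higher fitted levels, and 5 were apart on the low side and 2 on the high side. The median was -0.51 log2 units, against 0 over all genes tested, and was -0.33 without water-loaded rat 1 and -0.34 without control rat 1. Adcy6, the main vasopressin-stimulated adenylyl cyclase of the collecting duct, stood at 470.0, 417.8 and 498.3 CPM in water-loaded rats and 555.8, 601.2 and 567.9 CPM in controls. Gnas, the stimulatory G protein subunit, had overlapping rats at 612.7, 491.1 and 530.2 CPM against 664.7, 331.5 and 521.8 CPM. Avpr1a, the V1a vasopressin receptor, stood at 160.0, 130.7 and 218.3 CPM, against 390.4, 304.3 and 225.5 CPM (unadjusted p 0.0117, adjusted p 0.674). On log2 FPKM values the list median was -0.11 with a pseudocount of 1 and -0.05 with 0.1, while the median of all genes shifted by 0.19 and 0.35.

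Of 24 genes for the trafficking of aquaporin 2, 0 were called, and 1 was apart in each direction. Rab11b, a GTPase of recycling endosomes, was the low one, at 188.8, 177.9 and 215.5 CPM against 417.1, 470.8 and 259.0 CPM. Rab7a, which directs endosomes to lysosomes, and Ezr, which links actin to the membrane, overlapped between groups. The list median was -0.07 log2 units, and 0.19 without control rat 3.

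In the list of principal cell transcription factors 0 of 20 tested members were called, and 2 were apart on the low side and 1 on the high side. Gata3, a zinc finger factor of the collecting duct lineage, stood at 142.1, 212.7 and 324.2 CPM with water load, against 501.8, 671.2 and 347.0 CPM in controls (-1.16 ± 0.38 log2 units, adjusted p 0.674). Its relative Gata2, a factor needed for Aqp2 expression in mouse collecting duct, stood at 400.2, 430.3 and 598.1 CPM, against 982.5, 1135 and 554.2 CPM, with water-loaded rat 3 above control rat 3. The AP-1 genes Fos and Junb overlapped. Among 12 principal cell markers of 100 CPM or more, 3 were apart on the low side (Aqp2, Aqp3 and Gata3), 25% against 14.7% of all 1823 genes at that abundance. The whole list of 15 had 0 called members and a median of -0.10 log2 units, which was 0.05 without control rat 1. Elf5, an ETS factor of principal cells, was at or near 0 in every rat, at 0, 0.81 and 0.25 CPM with water load and 0 in all controls.

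In the 3 lists of intercalated cell markers 0 members were called. Without overlap were Hmx2 in the type B list of 6, and 1 member in each direction in the pan-intercalated list of 9. Foxi1, the transcription factor that specifies intercalated cells, stood at 704.9, 507.5 and 674.4 CPM with water load, against 854.4, 1089 and 855.7 CPM in controls. Car12, a membrane carbonic anhydrase, stood on the other side, at 967.3, 812.0 and 724.5 CPM against 640.8, 527.2 and 705.4 CPM. Rhbg and Rhcg, the ammonia channels, overlapped between the groups. In bulk ducts, fewer cells of a type and less RNA per cell cannot be told apart.

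Cell cycle genes lay almost all on the higher side. Of 28 tested members, 27 had higher fitted levels in water-loaded rats, 14 were apart on the high side and 0 on the low side, and 0 were called. The median was 3.10 log2 units, and it ran from 2.25 without water-loaded rat 1 to 4.20 without control rat 3. Most of the list was scarce: of the 18 members at 1 to 10 CPM, 11 were apart on the high side (61.1%), against 10.6% of all genes at that abundance. With genes under 10 CPM removed before the fit, the median of the members left was 1.42.

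Mki67, a marker of cycling cells, stood at 17.9, 7.49 and 9.59 CPM in water-loaded rats and 0.94, 0.25 and 7.17 CPM in controls. Cdk1, the kinase that drives entry into mitosis, stood at 42.8, 30.6 and 8.75 CPM, against 1.99, 9.91 and 4.15 CPM, with water-loaded rat 3 below control rat 2. Uhrf1, which maintains DNA methylation at replication, stood at 15.4, 5.23 and 5.46 CPM, against 0.04, 0.31 and 0.09 CPM. Mad2l1, of the spindle checkpoint, stood at 11.4, 6.92 and 4.20 CPM, against 0.13, 0.28 and 0.18 CPM. Knstrn, a kinetochore protein, stood at 14.5, 7.34 and 1.61 CPM, against 0, 0.09 and 0.07 CPM. Top2a, the topoisomerase of dividing cells, stood at 8.01, 12.5 and 2.39 CPM, against 0.86, 0 and 0 CPM. The abundant members that also serve resting cells overlapped between groups: Pcna, the replication clamp, stood at 542.0, 609.4 and 605.4 CPM, against 669.5, 627.7 and 373.2 CPM, and the cyclin gene Ccnd1 at 55.6, 123.3 and 98.6 CPM, against 70.5, 88.2 and 36.7 CPM. Tyms, another abundant member, also overlapped and was the 1 member with a lower fitted level (-0.70 log2 units). It stood at 69.3, 75.2 and 89.1 CPM, against 156.8, 161 and 61.4 CPM. The list median was 0.13 at day 1 and 1.89 at day 2. Cdk1 had the opposite order at day 1, without overlap, at 7.09 to 13.8 CPM in water-loaded rats and 41.3 to 52.6 CPM in controls. At day 2 it averaged 48.4 ± 5.95 CPM with water load and 22.4 ± 23.6 CPM in controls. At that day Mki67 averaged 39.5 ± 24.5 CPM in water-loaded rats and 4.01 ± 4.65 CPM in controls (SD, n = 4 each).

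Of 11 tested alpha and beta tubulins, 7 had higher fitted levels, 3 were apart on the high side and 0 on the low side, with a median of 0.67 log2 units, which was 0.37 without water-loaded rat 1. Tubb4b stood at 492.1, 522.9 and 420.1 CPM with water load, against 363.7, 304.3 and 191.3 CPM in controls. Reads of near-identical tubulin genes may have been split between copies or dropped, so single tubulin values are uncertain.

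Of 22 genes in the cholesterol synthesis list, 16 had higher and 6 lower fitted levels, 6 were apart on the high side and 1 on the low side, and 0 were called. The median was 0.60 log2 units, between 0.40 and 0.81 when each rat was left out in turn. Of the 18 members at 10 to 100 CPM, 6 were apart on the high side (33.3%), against 5.69% of all genes at that abundance. Besides Insig1, described above, Idi1, an isomerase of the mevalonate pathway, stood at 22.8, 20.5 and 19.99 CPM with water load, against 0.56, 5.00 and 8.30 CPM. Fdft1, squalene synthase, stood at 80.2, 77.2 and 64.8 CPM, against 34.3, 15.4 and 53.8 CPM. Fdps, which supplies its substrate, lay the other way, at 113.8, 137.5 and 121.2 CPM against 220.1, 208.8 and 139.8 CPM. At day 1, Fdft1 averaged 95.4 ± 30.1 CPM with water load and 121.5 ± 82.6 CPM in controls (SD, n = 3 each), so its day 4 order was not present there. The median of the whole list was 0.31 log2 units at day 1 and 0.75 at day 2.

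Proteasome subunits were mixed: 24 of 31 had higher fitted levels, but 3 were apart on the high side and 2 on the low side, and the median of 0.35 log2 units was 0.08 without control rat 2. Psmd12, a lid subunit, stood at 45.3, 44.9 and 27.7 CPM, against 17.9, 5.400 and 9.16 CPM. Psmb4, a core subunit, stood at 376.6, 454.4 and 443.1 CPM, against 720.2, 853.9 and 517.4 CPM.

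Genes of the unfolded protein response included several with lower levels. In that list 14 of 20 members had lower fitted levels and 0 were called. On the low side 3 were apart (15%, against 6.73% of all genes tested), and on the high side 0. These 3 were among the 10 members of 100 CPM or more (30%), against 14.7% of all genes at that abundance. The list median was -0.40 log2 units. It was -0.06 without control rat 2 and 0.03 on log2(FPKM + 1) values. Herpud1, of the degradation machinery of the endoplasmic reticulum, stood at 291.1, 227.4 and 284.3 CPM with water load, against 466.8, 751.3 and 428.3 CPM in controls. Manf, a secreted factor of the same stress response, stood at 200.1, 237.0 and 226.7 CPM, against 386.3, 961.6 and 287.8 CPM. Hspa5 (BiP), the main chaperone of that compartment, stood at 394.9, 328.6 and 184.3 CPM, against 464.1, 556.6 and 412.5 CPM. Control rat 2 was the highest rat in each of the 3, which are the 3 members that were apart. Pdia3, the most abundant member, overlapped, at 807.9, 786.5 and 1051 CPM against 1129, 2197 and 859.4 CPM.

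In the signalling, cytoskeleton and clock lists, single members had groups that did not overlap. Apart on the high and low sides were 0 and 2 of 19 actin genes and 1 and 1 of 10 EGF ligands and ErbB receptors. The numbers were 0 and 1 of 19 immediate-early genes and 2 and 0 of 14 clock genes. Of all genes tested, 7.93% were apart on the high side and 6.73% on the low side. Fitted levels were higher in 7 of the 10 EGF and ErbB genes and lower in 6 of the 14 clock genes. Tpm4, a tropomyosin of actin filaments, stood at 155.2, 172.7 and 228.3 CPM in water-loaded rats, against 635.5, 1182 and 318.2 CPM in controls (-1.94 ± 0.54 log2 units, adjusted p 0.674). Btc, betacellulin, a ligand of the EGF receptor, stood at 26.5, 102.5 and 83.2 CPM, against 167.9, 332.5 and 174.9 CPM. Ier3, an immediate-early gene, stood at 352.7, 558.0 and 886.4 CPM, against 1201, 1733 and 1251 CPM. Hes1, a target of Notch signals, stood at 25.7, 21.7 and 43.0 CPM, against 69.4, 65.4 and 67.9 CPM, and the Notch ligand Dll1 at 40.9, 41.6 and 40.0 CPM, against 44.5, 88.5 and 88.6 CPM, with control rat 1 close to the water-loaded rats. In the Notch list 2 of 15 tested members were apart on each side, and the median of -0.10 ran from -0.42 without water-loaded rat 3 to 0.17 without control rat 2. Nr1d1, a repressor of the circadian clock, stood at 58.6, 40.2 and 43.5 CPM, against 25.2, 9.63 and 13.6 CPM. None of these 6 genes passed the test. The 3 most abundant actin genes (Gsn, Actg1 and Pfn1) and clock genes (Tef, Per2 and Dbp) overlapped between groups.

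**Figure D5:**
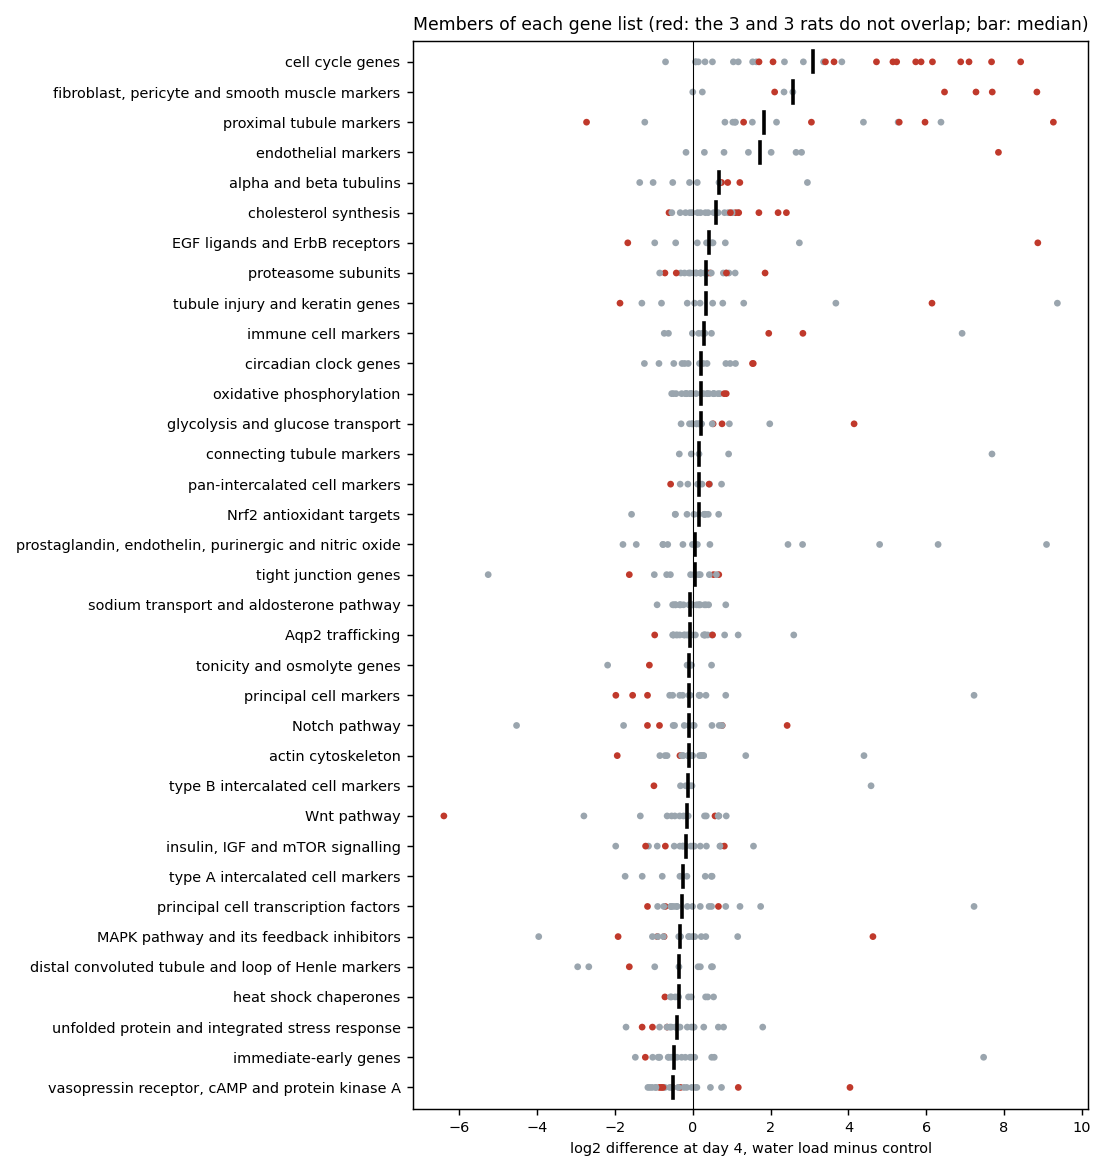
Each point is 1 tested member of a gene list, placed by its fitted log2 difference at day 4, water load minus control; red points are members whose 3 water-loaded and 3 control rats do not overlap, black bars are list medians, and lists with under 5 tested members are left out. Cell cycle genes have the highest median, 3.10, and the vasopressin, cyclic AMP and protein kinase A list the lowest, -0.51.

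Markers of cells outside the duct epithelium were separated between the groups in sum for the stromal list, and overlapped in sum for the endothelial, immune and proximal tubule lists; 0 members were called in any of the 4. For fibroblasts, pericytes and smooth muscle, 8 of 9 tested markers had higher fitted levels with water load and 5 were apart on the high side, with summed levels of 23.3, 84.6 and 42.2 CPM in water-loaded rats and 6.68, 17.2 and 8.67 CPM in controls. The median of this list was -2.75 log2 units at day 1, 0.60 at day 2 and 2.57 at day 4, so its sign changed between days. Of the 3 most abundant members, Dcn was apart on the high side, at 10.9, 24.0 and 15.2 CPM against 0.09, 4.69 and 6.86 CPM. Col3a1 overlapped, at 0.07, 39.3 and 18.9 CPM with water load against 6.5, 4.57 and 0.41 CPM in controls. Tagln also overlapped, at 2.46, 8.17 and 0.23 CPM against 0.02, 7.87 and 1.29 CPM. Among scarcer members, Pdgfrb, of pericytes, stood at 1.62, 5.37 and 4.28 CPM, against 0, 0.03 and 0.02 CPM. Col1a1, a fibrillar collagen, stood at 1.70, 5.00 and 1.67 CPM, against 0, 0.03 and 0.06 CPM. Lum had no reads in any of the 6 libraries. Endothelial markers summed to 36.5, 304.1 and 459.7 CPM with water load and 127.7, 287.7 and 78.7 CPM in controls, 7 of 8 tested members having higher fitted levels and 1, Tek, being apart. The 3 most abundant of them, Plvap, Eng and Emcn, overlapped. The endothelial median was -1.10 log2 units at day 1, 0.10 at day 2 and 1.72 at day 4. Immune markers summed to 141.8, 288.0 and 189.3 CPM, against 68.4, 61.1 and 190.8 CPM, with Cd3e at 0 in all 6 rats and Cd74, of antigen presentation, at 83.6, 178.8 and 128.5 CPM, against 27.8, 7.99 and 65.1 CPM. Lyz2 overlapped, at 25.2, 32.0 and 28.1 CPM against 4.34, 0.93 and 64.1 CPM. C1qc also overlapped but had a lower fitted level, at 8.01, 21.1 and 6.40 CPM against 19.0, 13.7 and 22.0 CPM.

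Proximal tubule markers summed to 491.8, 120.5 and 176.1 CPM in water-loaded rats and 182.5, 175.5 and 61.9 CPM in controls. In that list 14 of 16 tested members had higher fitted levels, 5 were apart on the high side and 1 on the low side, and the median of 1.84 log2 units was 0.45 without water-loaded rat 1. The proximal tubule median was 4.59 log2 units at day 1 and -3.07 at day 2. The haemoglobin genes were near 0 in 5 rats and present in control rat 3, where Hba1 stood at 38.2 CPM and Hbb at 46.1 CPM. The part that RNA of other cells plays in the cell cycle, sterol and low-abundance differences was not tested.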

How the data were processed

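RNA-seq counts of microdissected cortical collecting ducts from 20 rats were used, and the 6 day 4 libraries were compared. The count table deposited by the authors holds whole reads per Ensembl gene. The deposited FPKM values are the same counts rescaled (0 of 13538 genes compared had an implied length varying by over 0.1%). The submitters' processing notes list Trimmomatic 0.32, STAR 2.4.0.1, SAMtools and HTSeq, with build rn6. Annotation, strand use and settings were not given in the sources used here. Dropped before testing were 5 summary rows without a gene (32.89% to 34.71% of each day 4 library), mostly reads that were not unique (21.74% to 23.81%), so genes with near-identical copies are uncertain. A count of 0 allows up to 3 reads, and amplified reads without molecular identifiers make such limits cover counting error only.

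The main test was edgeR 4.0.16 (R 4.3.3). After filterByExpr, TMM-scaled counts of 14472 genes from all 20 libraries entered 1 robust quasi-likelihood fit with a mean per group, so the spread was shared across days. P-values were adjusted over all genes by Benjamini-Hochberg (threshold 0.05). Errors are SE for fitted differences and SD over rats otherwise. The labels number the rats without naming litters or batches, and p-values measure the spread between these rats. For Aqp2 and Aqp3 an exact permutation test used mean log2 CPM, with a prior count of 2. The model was tested on simulated data. Alternatives used DESeq2 1.42.0, limma 3.58.1, other scalings and filters, log2 FPKM, and each rat left out.

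The members and the 37 gene lists (590 entries, 576 matched by symbol, 545 tested) were chosen with earlier results of these data known. Genes were named by rule: Aqp2, Aqp3, Aqp4, Avpr2 and the sodium channel subunits; as fewer than 10 were called, the 8 per direction with the smallest unadjusted p, a mean of 10 CPM or more in a group and no overlap; and the 3 most abundant members of each list. Not all of these abundant members are described above, so the members shown do not stand for their lists. All other list members named were chosen after their values were seen. Reference gene names matched 0 of the Ensembl identifiers, so symbols are those of the counts.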

Additional observations from a re-analysis of the deposited data

Results flagged for a closer look

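3 named genes had water-loaded and control rats that did not overlap at day 4 and did not overlap in the opposite direction at day 1. None passed the test of the difference between days. Foxi1, the factor of intercalated cells, averaged 629 ± 106 CPM with water load and 933 ± 135 CPM in controls at day 4 (SD, n = 3 each), and 494 ± 162 CPM with water load and 316 ± 26.7 CPM in controls at day 1. Its effect at day 4 minus the mean effect of days 1 and 2 was -0.83 log2 units by edgeR (adjusted p 0.842).

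Slc2a4, the insulin-responsive glucose transporter, averaged 4.58 ± 1.45 CPM with water load and 0.25 ± 0.44 CPM in controls at day 4, and 0.02 CPM with water load and 56.2 ± 77.4 CPM in controls at day 1. That difference was 9.80 log2 units (adjusted p 0.781). Sdhb, a subunit of succinate dehydrogenase, averaged 398 ± 107 CPM with water load and 227 ± 37.4 CPM in controls at day 4, and 222 ± 20.4 CPM with water load and 303 ± 57.6 CPM in controls at day 1. Its value was 0.69 log2 units (edgeR, adjusted p 1.00).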

How the results depend on the processing

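The count of 0 genes at day 4 became 319 with DESeq2, 1 with a filter of 10 CPM (Eva1b), 2 on log2(FPKM + 1) and 3 on log2(FPKM + 0.1). Leaving out each rat in turn gave 0 to 0 calls, and 0 to 1 with the filter of 10 CPM, a combination added after seeing the data: 1 without control rat 3, 1 without water-loaded rat 2 and 1 without water-loaded rat 3. All other alternatives called 0. The contrast between days called 291 genes with DESeq2 and 0 in every other alternative. The cause was not tested. Unadjusted p below 0.05 was reached by 559 to 1295 genes when rats were left out, the fewest without control rat 2. The 0.1 permutation p of both channels was the same on each scale tried.

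Rats with the same number did not deviate together at day 4 (correlations of -0.0037, -0.0338 and -0.0907), so the number does not pair them; with the replicate block 0 genes were called in either contrast.

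No called value turned. Among values that did not pass, Umod was 0.593 with the replicate block and 0.636 with block and filter, against -2.67; over the leave-one-out fits it ran from -3.51 to 1.38 (without control rat 1, the 1 rat with high Umod), and was 1.41 without that rat and with the filter. With the number of genes detected as a covariate Emcn became -0.372, Rab7a -0.00823 and Fzd6 0.293. Leave-one-out fits put Fzd6 between -1.04 and 0.202 (without control rat 2), or 0.239 without that rat and with the filter. Aldoa was 0.00889 and 0.0089 on the FPKM scales. The median of all genes tested shifted by 0.142 with the block, 0.148 with limma-voom, 0.187 on log2(FPKM + 1) and 0.353 on log2(FPKM + 0.1). Of 925 list medians recomputed, 809 moved by less than the spread between rats and 116 by more.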
